A study of Bombyx mori with 2 samples.

Results

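Protease inhibitors were taken as the gene models of the silkworm, *Bombyx mori*, whose BLAST name holds serpin, protease inhibitor, proteinase inhibitor, trypsin inhibitor or antitrypsin in any case. The rule found 40 gene models among the 12376 in the expression table. By name they comprised 27 serpins, 8 small inhibitors placed with the trypsin inhibitor-like (TIL) class, 3 Kazal-type inhibitors, 1 cystatin-type inhibitor of cysteine proteases and 1 inter-alpha-trypsin inhibitor heavy chain. Of these models, 4 were named by a protein of another lepidopteran and the rest by a silkworm protein. The rule reads names only, so inhibitors with other names, such as papilin-like genes, are not included.

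The study compared the head of the *nm2* mutant with that of the wildtype strain C603 by digital gene expression (DGE) profiling, that is, by sequencing short fragments of mRNA and counting them per gene. Each strain gave 1 library from the heads of 6 pooled larvae, collected in the 2nd instar just before the molt. According to the study, *nm2* arose within C603 and lacks a stretch of the coding sequence of *BmCPG10*, a gene for a cuticular protein. Its larvae look normal in the 1st instar, cannot molt in the 2nd and die some days later. No treatment is listed for either strain. With 1 library per strain there was no spread between replicates and no test between the strains was possible. Strain, pool, library and the exact time of sampling cannot be told apart, and every difference is one between 2 libraries.

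Serpins are proteins with an exposed loop that a target protease cuts. The cut snaps the serpin into a new fold and traps the protease in a covalent complex, so each molecule works only once. TIL, Kazal and cystatin-type inhibitors are instead small, often disulfide-bonded domains that plug the active site of a protease like a stopper. In caterpillars, inhibitors of both kinds circulate in the hemolymph, where they hold back the serine protease cascades that lead to melanin and to Toll signalling, and they also occur in cuticle, molting fluid, midgut and silk. Molting needs controlled proteolysis, because the inner layers of the old cuticle are digested before it is shed.

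Levels are given as FPKM, that is, fragments scaled to the length of the gene and to the size of the library, so genes can be compared with each other. The words higher and lower are kept for genes that reached 5 FPKM in either library and differed at least 2-fold on the log2(FPKM + 1) scale, that is, by an absolute log2 difference of 1 with a pseudocount of 1 FPKM. The wildtype library had 12912619 clean reads, of which 55.48% aligned to genes, and the *nm2* library 12900347, of which 60.12% did. For the 20 inhibitors with a listed coding length, reads were worked out from the FPKM and that length, and the FPKM ratio is given with a 95% interval from an exact conditional binomial. Lengths were listed only for genes that the authors' own comparison had picked from these libraries, so an interval that leaves out 1 follows from that choice. The library totals behind these reads came to 52.6% and 52.3% of the mapped reads, for a reason that the sources used here do not give, and the intervals may be too wide if 1 unit stands for more than 1 read. The intervals cover counting error only and say nothing of the spread between pools of larvae.

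The inhibitors moved in both directions and by a wide range. Of the 40 genes, 11 (27.5%) were higher and 9 (22.5%) were lower in *nm2*. Among all 12376 genes, 6.54% were higher and 11.1% were lower by the same rule. With the median ratio of all genes set to no difference, a shift of 0.28 on the log2 scale, 13 inhibitors were higher and 7 lower, or 65% higher among those past the rule against 55%. The same shift gave 1151 higher and 929 lower genes in the whole table, in place of 809 and 1371. The median log2 difference was 0.08 over the 38 inhibitors at 1 FPKM or more, beside -0.28 over all 11235 such genes. It turned to -0.019 when each BLAST protein was represented by 1 gene model, so the median of the inhibitors has no stable sign. The remaining 20 inhibitors comprised 13 at 5 FPKM or more without a 2-fold difference and 7 below 5 FPKM in both libraries.

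**Figure D1:**
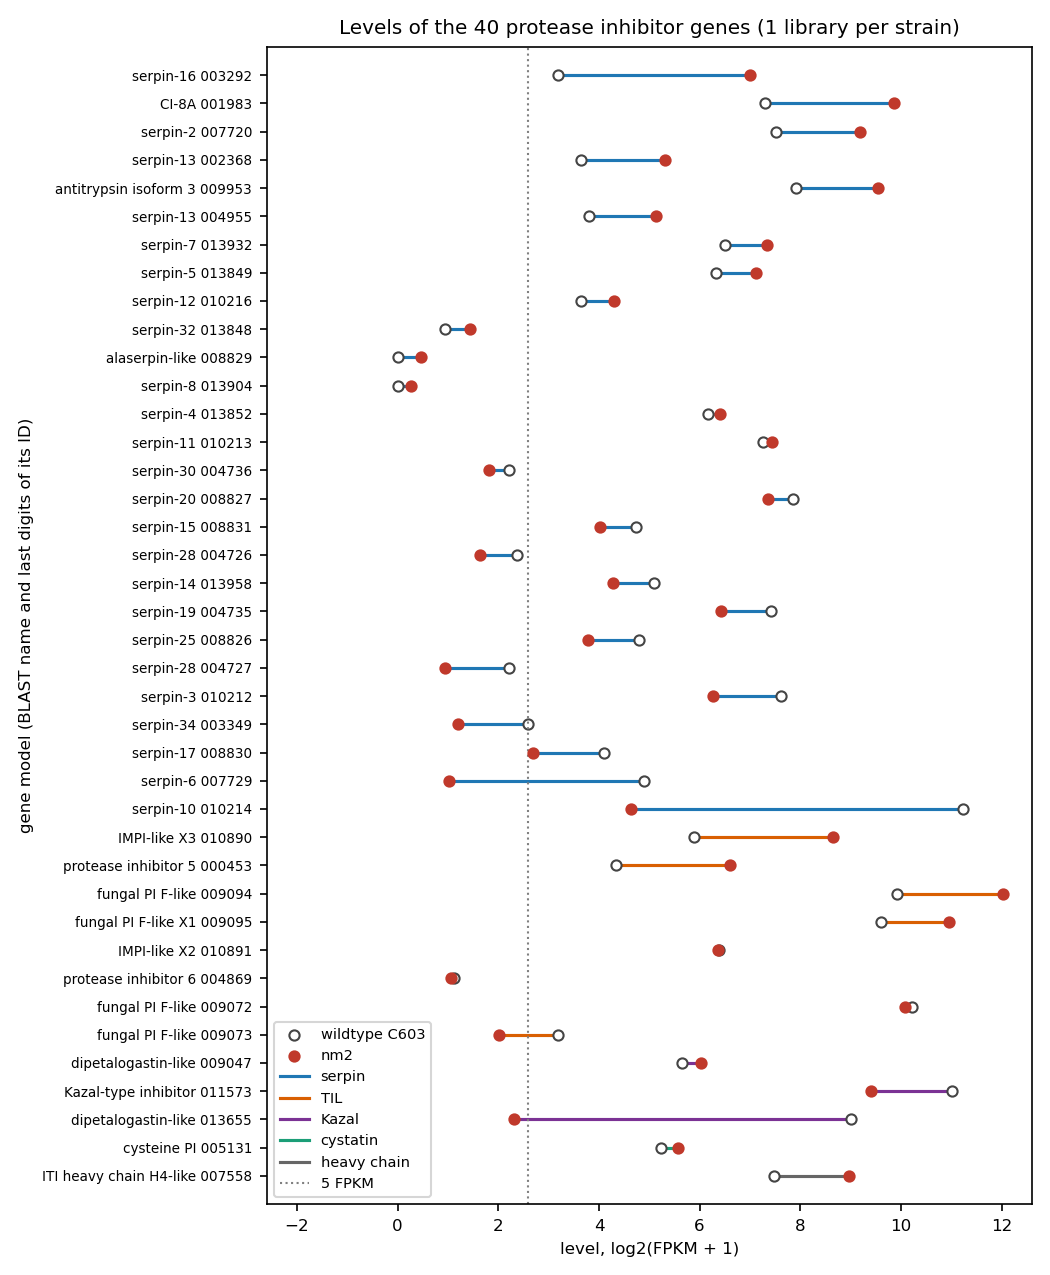
Level of each of the 40 inhibitor genes on the log2(FPKM + 1) scale in the wildtype (open circles) and *nm2* (filled circles) libraries, 1 library per strain, ordered by family and then by difference; the dotted line marks 5 FPKM. The longest bars belong to a dipetalogastin-like gene, *serpin-10* and *serpin-6*, all lower in *nm2*, followed by *serpin-16*, which was higher.

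The leading inhibitors of the head changed rank between the libraries, though 3 of the top 5 were shared. Summed FPKM of all 40 genes was 10088 in the wildtype and 12513 in *nm2*, or 0.875% and 1.06% of all FPKM. In the wildtype, *serpin-10* and a Kazal-type inhibitor together held 44.2% of this sum, and in *nm2* the same genes held 5.61%. In *nm2*, a pair of fungal protease inhibitor F-like genes held 49.1%, against 17.2% in the wildtype. The top 5 of the wildtype held 73.2% there and 63.3% in *nm2*. By class, TIL inhibitors made up 30.7% of inhibitor FPKM in the wildtype and 62.3% in *nm2*, Kazal-type inhibitors 25.97% and 5.97%, and serpins 41.2% and 27.4%.

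*Serpin-10* (*BGIBMGA010214*, BLAST name serine protease inhibitor 10) showed the largest loss among the serpins. Its level of 2396 FPKM in the wildtype stood against 23.8 FPKM in the mutant, a difference of -6.59 on the log2 scale. In the wildtype it was the 91st most abundant of all genes and made up 57.7% of serpin FPKM, and in *nm2* it ranked 3405th and made up 0.695%. From 12588 recovered wildtype reads and 135 *nm2* reads, it was 100.6-fold lower (95% counting interval 84.7 to 120). Of the 9158 genes reaching 5 FPKM, 0.393% had a larger absolute difference.

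This 1 gene set the direction of the serpin sum. Summed over the 27 serpins, FPKM was 4155 in the wildtype and 3431 in *nm2*, a ratio of 0.826 that became 1.004 after the median rescaling. Without *serpin-10* the sums were 1759 and 3407, a ratio of 1.94. By count, 6 of the 27 serpins were higher and 6 lower, 22.2% each, beside 6.54% and 11.1% of all 12376 genes. After the median rescaling 8 serpins were higher and 5 lower, beside 1151 and 929 of all genes.

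The higher serpins included genes for abundant hemolymph inhibitors. Chymotrypsin inhibitor CI-8A (*BGIBMGA001983*), an inhibitor of silkworm hemolymph, stood at 157 FPKM in the wildtype and at 922 FPKM in the mutant, 5.87-fold higher (5.40 to 6.38). It was the most abundant serpin of the *nm2* library. Antitrypsin isoform 3 (*BGIBMGA009953*), a product of the *serpin-1* type of gene which in *Manduca sexta* makes loops of different specificity by splicing of alternative exons, had 241 and 742 FPKM, 3.08-fold higher (2.86 to 3.32). *Serpin-2* (*BGIBMGA007720*) went from 181 to 581 FPKM, 3.21-fold higher (2.95 to 3.50). These genes stood at similar levels in the wildtype, between 157 and 241 FPKM, and between 581 and 922 FPKM in *nm2*.

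The largest increase of any inhibitor was in *serpin-16* (*BGIBMGA003292*), a serpin known from silkworm silk gland. It stood at 8.12 FPKM in the wildtype and at 127.52 FPKM in the mutant, 15.7-fold higher (11.2 to 22.7, from 35 and 591 reads). Of the genes reaching 5 FPKM, 99.5% had a lower log2 difference. Of the 10 genes in the silk gland list, 1 was higher and 1 lower. A fibrohexamerin-like gene (*BGIBMGA009259*) stood at 0.48 and 37.3 FPKM. The lower gene, fibroinase (*BGIBMGA011342*), had 1058 and 402 FPKM and is a protease caught in this list by its name. The major silk genes were nearer to each other. Fibroin heavy chain (*BGIBMGA005111*) had 2284 and 3860 FPKM, fibroin P25 (*BGIBMGA001347*) had 274 and 295 FPKM and sericin 2 (*BGIBMGA011901*) had 562 and 1081 FPKM. Fibroin light chain (*BGIBMGA009393*) had 1699.7 and 2085 FPKM, so that none of these 4 reached 2-fold without rescaling. Fibroin heavy chain and sericin 2 had log2 differences of 0.76 and 0.94, and the median shift of 0.28 would carry both past the rule. The part of silk gland tissue in the *serpin-16* value was not tested.

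A pair of gene models named by serine protease inhibitor 13 completed the higher serpins. *BGIBMGA004955* had 12.97 and 34.2 FPKM (2.64-fold higher, 2.02 to 3.46), and *BGIBMGA002368* had 11.5 and 38.7 FPKM (3.38-fold higher, 1.85 to 6.62). Both hit the same protein. They can be parts of 1 gene or copies that share reads, and their ratios lay within each other's counting intervals.

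The lower serpins other than *serpin-10* were mostly of modest level. *Serpin-6* (*BGIBMGA007729*) was nearly lost, with 28.6 FPKM and 130 reads in the wildtype against 1.02 FPKM and 5 reads in *nm2*, 28.0-fold lower (11.7 to 87.6). In the tobacco hornworm *Manduca sexta*, *serpin-6* blocks a prophenoloxidase-activating proteinase of the melanization cascade. *Serpin-3* (*BGIBMGA010212*), whose *Manduca* namesake also blocks such proteinases, had 196 and 76.4 FPKM, 2.57-fold lower (2.29 to 2.89). These are examples by name, and the targets of the silkworm serpins and of other namesakes were not checked. *Serpin-17* (*BGIBMGA008830*) had 16.1 and 5.45 FPKM, 2.94-fold lower (1.82 to 4.74), and *serpin-34* (*BGIBMGA003349*) had 5.03 and 1.31 FPKM, 3.84-fold lower (1.79 to 9.11, from 32 and 9 reads).

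A pair of serpins lay at the limit of the 2-fold rule. *Serpin-25* (*BGIBMGA008826*) had 26.7 and 12.8 FPKM and just passed it with a log2 difference of -1.002, 2.08-fold lower (1.42 to 3.08). *Serpin-19* (*BGIBMGA004735*) had 170.26 and 85 FPKM and just missed it with -0.99, 2.00-fold lower (1.83 to 2.20). *Serpin-25* no longer passed when *nm2* was rescaled on the housekeeping genes or on the median gene, and *serpin-19* passed with pseudocounts of 0.1 and 0.01 FPKM or after rescaling to TPM. The read-based intervals of both held 2-fold.

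*Serpin-4*, *serpin-5* and *serpin-7* differed by less than 2-fold. In *Manduca*, *serpin-4* and *serpin-5* block hemolymph proteinases upstream of melanization and Toll signalling. *Serpin-5* (*BGIBMGA013849*) had 79.6 and 138 FPKM and *serpin-4* (*BGIBMGA013852*) 70.7 and 83.1 FPKM. *Serpin-7* (*BGIBMGA013932*) had 90.0 and 160 FPKM. *Serpin-5* and *serpin-7* would count as higher, but *serpin-4* not, after the median rescaling.

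Other serpins above 5 FPKM differed by less than 2-fold in either direction. *Serpin-20* (*BGIBMGA008827*), among the more abundant ones, had 229 and 164 FPKM, and *serpin-11* (*BGIBMGA010213*) had 152 and 173 FPKM. *Serpin-14* (*BGIBMGA013958*) had 33.3 and 18.4 FPKM, *serpin-15* (*BGIBMGA008831*) 25.6 and 15.2 FPKM, and *serpin-12* (*BGIBMGA010216*) 11.5 and 18.6 FPKM. Their lengths are not listed in the tables used here, and no interval is given.

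The 6 remaining serpins were below 5 FPKM in both libraries, so nothing can be read from their ratios. A pair of models named *serpin-28* (*BGIBMGA004726* and *BGIBMGA004727*) had 4.19 and 3.66 FPKM in the wildtype and 2.12 and 0.93 FPKM in *nm2*. *Serpin-30* (*BGIBMGA004736*) had 3.63 and 2.53 FPKM, and *serpin-32* (*BGIBMGA013848*) 0.92 and 1.71 FPKM. *Serpin-8* (*BGIBMGA013904*) and an alaserpin-like gene (*BGIBMGA008829*), named after the first described *serpin-1* of *Manduca*, were listed at 0 in the wildtype and at 0.20 and 0.39 FPKM in *nm2*.

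**Figure D2:**
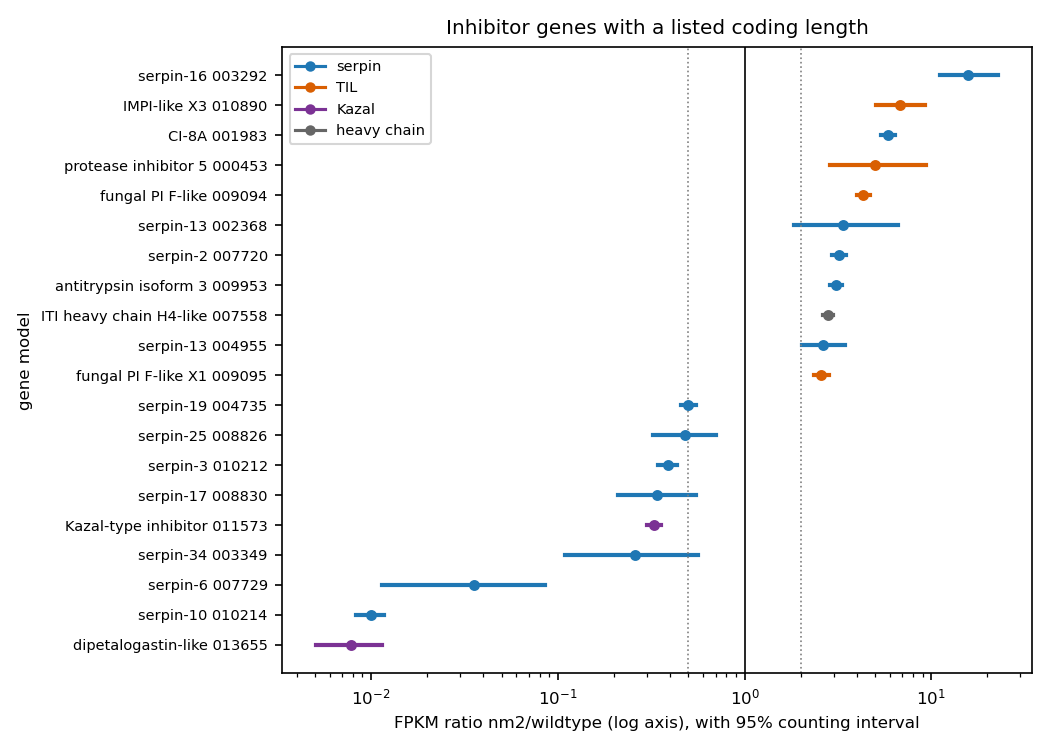
FPKM ratio of *nm2* to wildtype on a log axis for the 20 inhibitor genes with a listed coding length, with bars for the 95% counting interval and dotted lines at 2-fold. Intervals of 10 higher and 5 lower genes lie wholly past 2-fold, and those of *serpin-13* (*BGIBMGA002368*), *serpin-17*, *serpin-19*, *serpin-25* and *serpin-34* reach across it. The authors picked these genes with a 2-fold limit, so every ratio shown lies past 2-fold by that choice.

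The small inhibitors split by class, TIL genes being higher where they passed the rule with 1 weakly expressed exception and Kazal genes lower. The fungal protease inhibitor F of the silkworm, a small protein of the hemolymph, blocks subtilisin-type proteases that insect-pathogenic fungi secrete. Of 4 genes with this name, *BGIBMGA009094* stood at 962 FPKM in the wildtype and at 4151 FPKM in the mutant, 4.31-fold higher (3.99 to 4.67). With this level it was the most abundant inhibitor of the *nm2* library and its 39th most abundant gene, after rank 226 in the wildtype. *BGIBMGA009095* had 770.5 and 1988 FPKM, 2.58-fold higher (2.35 to 2.83).

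The other genes of this name did not share the increase. *BGIBMGA009072* was the most abundant of them in the wildtype and had 1197 and 1074 FPKM, a log2 difference of -0.16. *BGIBMGA009073* was weakly expressed, at 8.06 and 3.02 FPKM, and was lower by the rule (log2 difference -1.17), but not after the median rescaling. It was the only inhibitor past the rule without a listed coding length, so the authors' comparison had not picked it. Its reads and counting error could not be worked out. Their proteins are short and alike in name, and how reads were shared between them is not given in the sources used here.

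A similar split was seen between a pair of inducible metalloproteinase inhibitor (IMPI)-like genes. IMPI was found in the wax moth *Galleria mellonella*, where it blocks thermolysin-like metalloproteases of pathogens. *BGIBMGA010890* had 58.6 FPKM and 51 reads in the wildtype against 399 FPKM and 373 reads in *nm2*, 6.81-fold higher (5.06 to 9.29). *BGIBMGA010891* had 82.2 and 81.1 FPKM. Their BLAST hits are named as isoforms X3 and X2 of IMPI-like proteins, so they may be parts of 1 gene.

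The inhibitors named by proteins of the moth *Lonomia obliqua* completed the TIL group. Protease inhibitor 5 (*BGIBMGA000453*) had 19.2 and 96.3 FPKM, 5.01-fold higher (2.87 to 9.38, from 15 and 81 reads). Protease inhibitor 6 (*BGIBMGA004869*) had 1.18 and 1.09 FPKM. Their place in the TIL class rests on the list made here and was not checked by sequence. Summed over the 8 TIL genes, FPKM was 3099 in the wildtype and 7793 in *nm2*, a ratio of 2.51 that was 1.70 without *BGIBMGA009094* and between 2.45 and 3.06 under the 3 rescalings.

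Among the Kazal-type inhibitors, the largest loss of any inhibitor was in a dipetalogastin-like gene (*BGIBMGA013655*). Dipetalogastin itself is a thrombin inhibitor of a blood-feeding bug, built of repeated Kazal domains. The gene had 511 FPKM and 3091 reads in the wildtype against 3.98 FPKM and 26 reads in *nm2*, 128-fold lower (87.2 to 196). A second gene with this name, *BGIBMGA009047*, had 49.3 and 64.6 FPKM and did not pass. The Kazal-type proteinase inhibitor *BGIBMGA011573*, encoded in only 291 bases, was the second most abundant inhibitor of the wildtype with 2059.6 FPKM and had 679 FPKM in *nm2*, 3.03-fold lower (2.78 to 3.31).

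The last members are not inhibitors of serine proteases in the strict sense. *BGIBMGA005131*, named by a cysteine proteinase inhibitor of *Manduca* with repeated cystatin domains, had 36.6 and 46.3 FPKM. The inter-alpha-trypsin inhibitor heavy chain H4-like gene (*BGIBMGA007558*) had 178 and 495 FPKM, 2.79-fold higher (2.63 to 2.96). In vertebrates the heavy chains bind hyaluronan, and the inhibitory domains lie in another subunit.

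**Figure D3:**
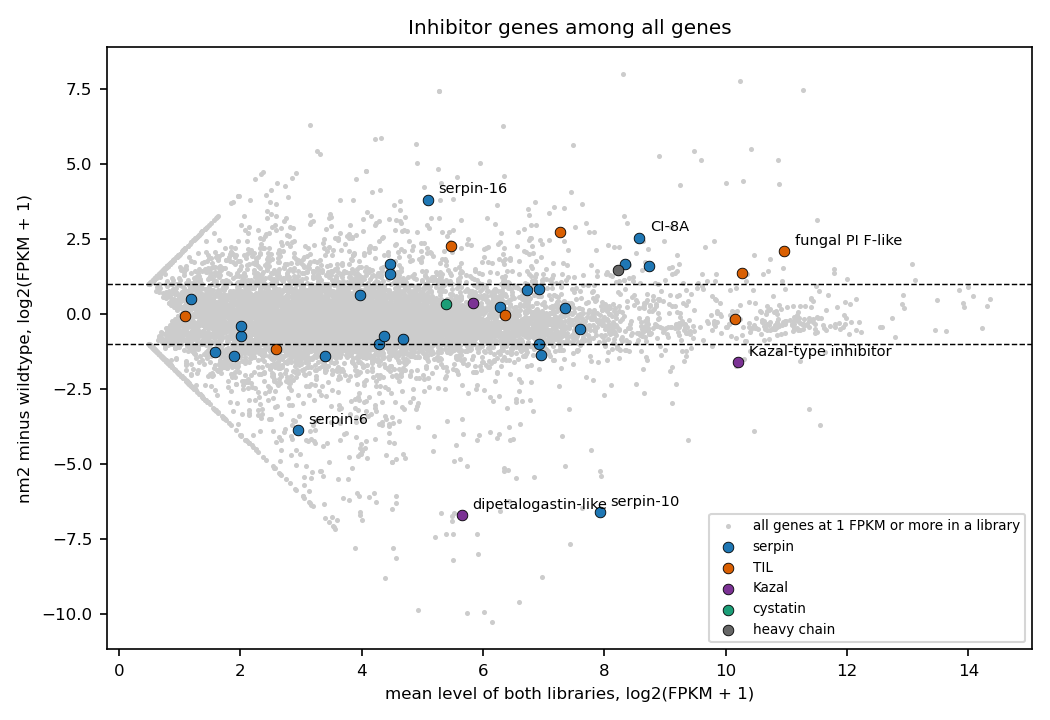
Difference between the libraries (*nm2* minus wildtype, log2(FPKM + 1)) against the mean level of both libraries for 11235 genes at 1 FPKM or more (grey) and the 38 inhibitor genes among them, coloured by class; dashed lines mark 2-fold. *Serpin-10* and the dipetalogastin-like gene lie at -6.59 and -6.68, and *serpin-16* at 3.82.

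Inhibitor genes often lie side by side in the silkworm genome, and neighbours did not always move together. Order was read from the RefSeq genes of assembly ASM3026992v2, which is not the gene set of the deposited files, so no coordinates are given. Of the 40 models, 31 were matched to 28 RefSeq genes, and 21 models stood in 6 runs of neighbouring genes with at most 2 other coding genes between them. In the run of *serpin-3*, *serpin-10* and *serpin-12*, log2 differences spanned 7.24, from -6.59 for *serpin-10* to 0.64 for *serpin-12*. RefSeq lists *serpin-11* as a synonym of *serpin-3*, yet the gene models carrying these names had log2 differences of 0.19 and -1.35. They may share exons, and reads of shared exons cannot be assigned to either.

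The 4 fungal protease inhibitor F-like genes also form a run. Along it, *BGIBMGA009095* was higher, *BGIBMGA009072* near equal, *BGIBMGA009073* lower and *BGIBMGA009094* higher, with log2 differences of 1.37, -0.16, -1.17 and 2.11. The lower gene of this run is the weakly expressed one without a counting interval. In the run of *serpin-15*, *serpin-17*, *serpin-20* and *serpin-25*, log2 differences lay between -0.48 and -1.40, and *serpin-17* and *serpin-25* were lower by the rule. The alaserpin-like gene between them was below 5 FPKM in both libraries. *Serpin-17* is a synonym of *serpin-15* in RefSeq. *Serpin-19* (-0.99) lies beside *serpin-28* and *serpin-30*, and *serpin-5* (0.79) and *serpin-4* (0.23) beside *serpin-32*, but *serpin-28*, *serpin-30* and *serpin-32* were below 5 FPKM and their differences are not read. The neighbours *serpin-7* and *serpin-14* differed in sign, at 0.82 and -0.82.

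**Figure D4:**
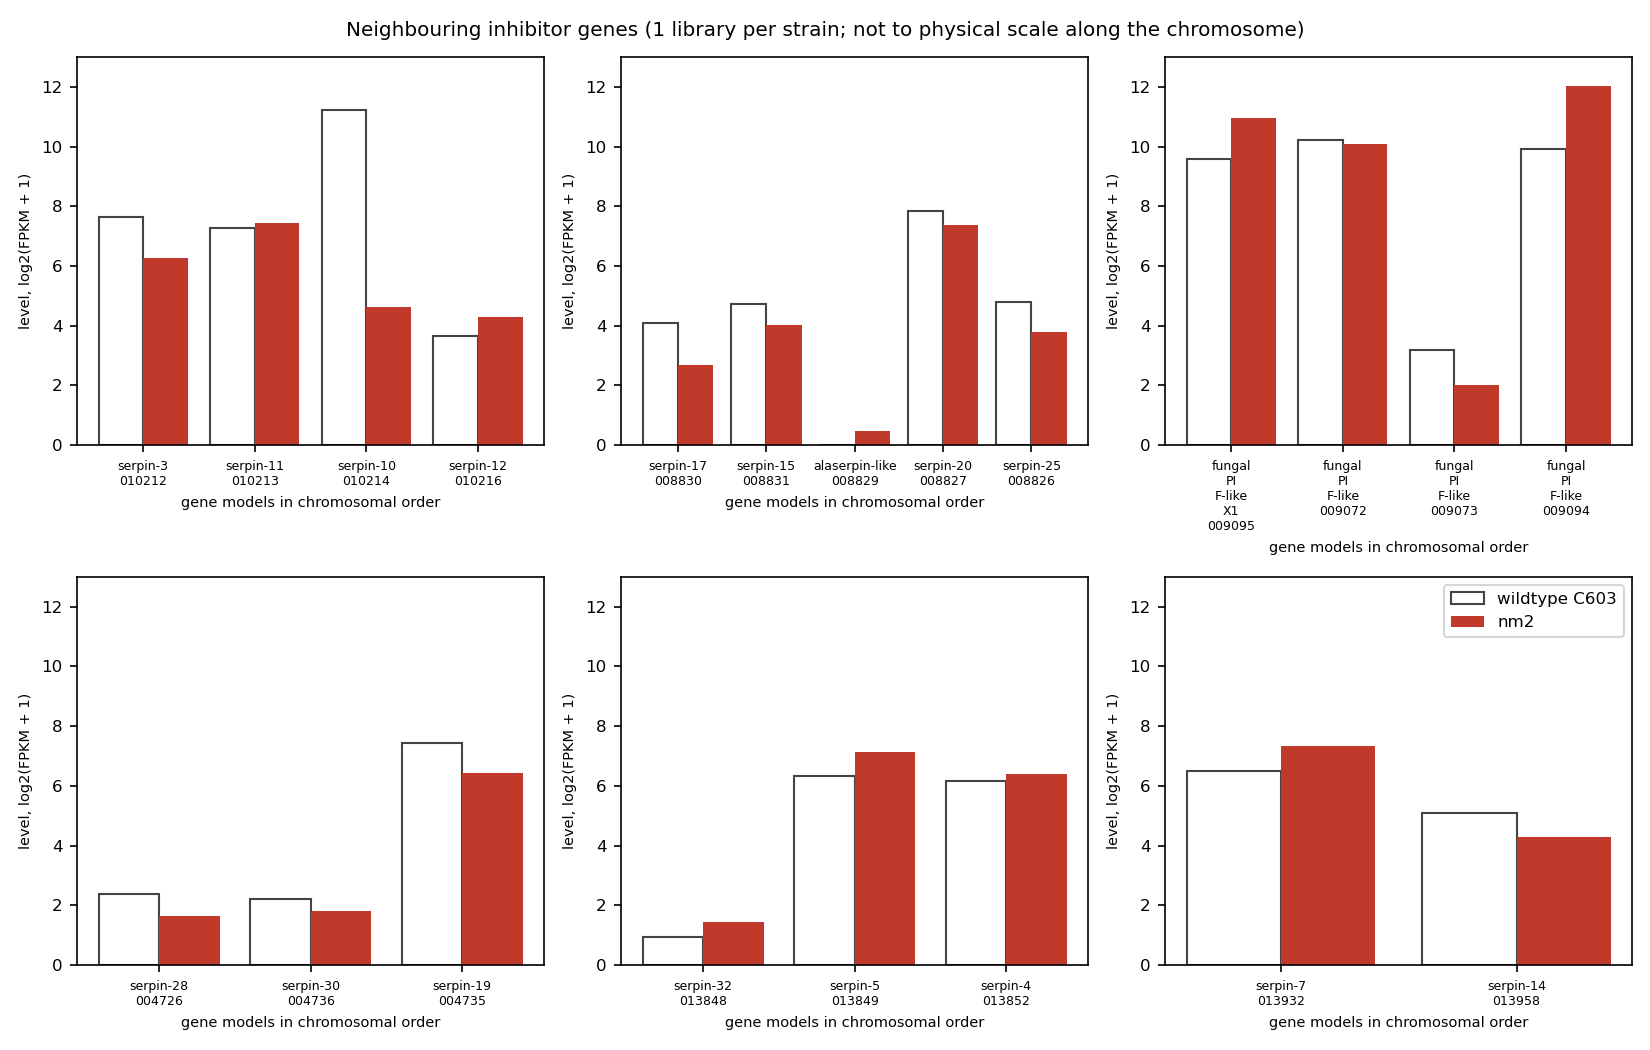
Level in the wildtype (open bars) and *nm2* (filled bars) libraries, log2(FPKM + 1), of inhibitor genes that lie near each other in RefSeq, in chromosomal order within each of 6 runs; spacing is not to scale, and models matched to 1 RefSeq gene (*serpin-3* with *serpin-11*, *serpin-15* with *serpin-17*) stand in order of their ID. The drop of *serpin-10* from 2396 to 23.8 FPKM stands beside neighbours that differ far less.

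Serine proteases, which most such inhibitors act on, counted 21 higher and 11 lower genes. Of 88 genes named as trypsins, chymotrypsins or other serine proteases these are 23.9% and 12.5%, beside 6.54% and 11.1% of all genes, so that the share lower was near that of all genes. The list had summed FPKM of 67863 and 99566. The farthest apart were genes named by stubble, a membrane-bound serine protease of *Drosophila* that is needed for the shape of epithelia. *BGIBMGA008665* went from 129 to 0.12 FPKM and *BGIBMGA009743* from 92.3 to 0.17 FPKM. By quantitative PCR the study also found *BGIBMGA009743* lower in *nm2*, but by far less than the FPKM show. Of 10 genes in the cysteine protease list, 1 was higher and 1 lower, 10% each, near the shares of all genes. Whether proteases with other names, such as fibroinase, belong in this list was not checked. The list holds cathepsin D, an aspartic protease caught by its name, which was neither. Cathepsin B (*BGIBMGA007061*) went from 1295 to 258 FPKM and a putative cysteine proteinase (*BGIBMGA007040*) from 8.84 to 229.79 FPKM.

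In the melanization list, 4 of 6 genes were higher and none lower. A PBAN-type neuropeptide (*BGIBMGA001651*, 1 and 1.4 FPKM) was caught in this list by a synonym and is no cascade member. Prophenoloxidase activating enzyme (*BGIBMGA013746*), the protease that switches on phenoloxidase, stood at 55.1 FPKM in the wildtype and at 706 FPKM in the mutant, and prophenoloxidase-1 (*BGIBMGA012764*), made in hemocytes, had 1.49 and 8.20 FPKM. Another higher model, named phenoloxidase subunit 1 (*BGIBMGA012763*, 3.34 and 14.4 FPKM), may belong to the same gene as *BGIBMGA012764*. Of 28 genes in the list for Toll signalling and pattern recognition, 1 (3.57%) was higher and 4 (14.3%) lower, near the 6.54% and 11.1% of all genes. A lower gene, the Sog-like *BGIBMGA005348* at 24.3 and 8.61 FPKM, was caught by its name and belongs to another pathway. The other 3 lower genes included a spatzle-like protein gene (*BGIBMGA008841*), named after the Toll ligand, at 77.95 and 1.98 FPKM. The higher gene was named dorsal interacting protein 3 (*BGIBMGA006142*), at 1.64 and 7.60 FPKM. Of 23 antimicrobial peptide gene models, none was higher and 16 were lower, led by *moricin-2* (*BGIBMGA011495*) and *attacin* (*BGIBMGA002747*), at 135 and 75.5 FPKM in the wildtype and both listed at 0 in *nm2*. Several of these models share a name and may share reads. A pair named cecropin-B (*BGIBMGA000036* and *BGIBMGA000038*) had the same values, 41.6 and 13.2 FPKM. The count is thus one of models, not of separate genes.

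Several inhibitors are known as products of fat body, so lists of tissue markers are given beside them. In RNA from whole heads, fewer cells of a type and less RNA per cell cannot be told apart. Of 46 fat body and hemolymph genes, 15 (32.6%) were higher and 3 (6.52%) lower, beside 6.54% and 11.1% of all genes. Their summed FPKM was 16311 in the wildtype and 37788 in *nm2*, and the most abundant in *nm2* was *30K protein 8* (*BGIBMGA004464*) at 4855 and 15274 FPKM. Apart from a storage protein model (*BGIBMGA009028*, 2193 and 5625 FPKM), the higher genes were all named as 30K proteins, 30 kDa lipoproteins or microvitellogenin-like. The counts therefore rest mainly on these names. Sex-specific storage protein 1 (*BGIBMGA011266*) had 3797 and 4753 FPKM, and an arylphorin-like gene (*BGIBMGA008860*) 9 and 1.06 FPKM. Apolipophorin III (*BGIBMGA013108*), also made in fat body, had 1180 and 1051 FPKM. The genes farthest apart were low molecular 30 kDa lipoproteins, *BGIBMGA004398* at 5.69 and 51.4 FPKM and *BGIBMGA004405*, listed at 0 in the wildtype and at 5.40 FPKM in *nm2*. In this list 8 genes were listed at 0 in the wildtype and 6 in *nm2*, and 28 of the 46 reached 5 FPKM in a library. It also holds vitellogenin receptor models caught by name, all below 1 FPKM. The part of this tissue in the higher levels of CI-8A, antitrypsin and the TIL genes was not tested.

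The remaining lists went in several directions. Epidermal genes, 146 cuticular proteins, had 40 higher and 26 lower, with summed FPKM of 42260.3 in the wildtype and 120584 in *nm2*. Farthest apart were the cuticular protein RR-1 motif 4 (*BGIBMGA002548*), at 18.8 and 5014 FPKM, and a putative cuticle protein (*BGIBMGA005259*), at 2438 and 11.2 FPKM. The study's quantitative PCR also had *BGIBMGA002548* higher in *nm2*, but with a far smaller ratio than the FPKM. Of 28 midgut genes 7 were higher, led by aminopeptidase N (*BGIBMGA008060*) at 41.9 and 714 FPKM, and 3 lower, led by a peritrophin-1-like gene (*BGIBMGA007900*) at 70 and 5.32 FPKM. Their sums were 4851 and 5900.2 FPKM. Most of both sums came from vacuolar ATPase subunits, none of which passed the rule. The sums therefore say little of the aminopeptidase N and peritrophin genes. Silk gland genes summed to 6050.3 and 7893 FPKM, in a list that also holds fibroinase and a ribonuclease P subunit, both caught by name.

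Of 36 genes in the hemocyte list 2 (5.56%) were higher and 4 (11.1%) lower, near the shares of all genes. It holds 16 disintegrin genes caught by name, among them 3 of the lower genes and the gene farthest apart (*BGIBMGA001968*, 153 and 0.61 FPKM). Without these 16, 2 were higher and 1 lower, an integrin beta-3-like gene (*BGIBMGA006151*) at 14.7 and 2.41 FPKM, and the sums turned from 802 and 637 to 358 and 391.9 FPKM. Most of these sums came from genes named by integrins, and whether those are particular to hemocytes was not checked. The 2 hemocytin models in the list summed to 21.9 and 23.9 FPKM, and neither passed the rule. Of 51 genes in the muscle list, made by the names of myosins, troponins and tropomyosins, 1 was higher and 7 lower, with sums of 47450.1 and 32988 FPKM. It holds 12 unconventional or non-muscle myosins, which are no muscle markers. These include 4 of the lower genes and the pair farthest apart, the myosin-XV-like *BGIBMGA007128* at 29.9 and 9.45 FPKM and *BGIBMGA007130* at 57.8 and 18.9 FPKM. Of the 13 troponins and tropomyosins none was higher and 1 lower, with sums of 24505 and 17065 FPKM. Of 71 genes in the nervous system list 7 were higher and 3 lower, with sums of 712 and 958 FPKM. Examples were neuropeptide-like precursor 4F (*BGIBMGA011769*) at 11.1 and 93.6 FPKM and an elav-like gene (*BGIBMGA005888*) at 17.7 and 4.78 FPKM. This list too was made by name. It holds several syntaxins, and neuroglian-like models are among its higher genes. Whether its genes are particular to the nervous system was not checked. None of 17 genes in the eye list passed the rule. Its 6 opsins, the defining markers of photoreceptors, were all below 5 FPKM, with at most 2.23 FPKM in the wildtype and 4.83 FPKM in *nm2*, and the list's sums of 189.7 and 188.8 FPKM came mostly from arrestin-domain genes that are not particular to the eye. Opsins therefore do not mark these libraries as head. Some genes named by neuropeptides were present in both libraries, but whether they mark head tissue was not tested. The part of any of these tissues in the inhibitor differences was not tested.

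**Figure D5:**
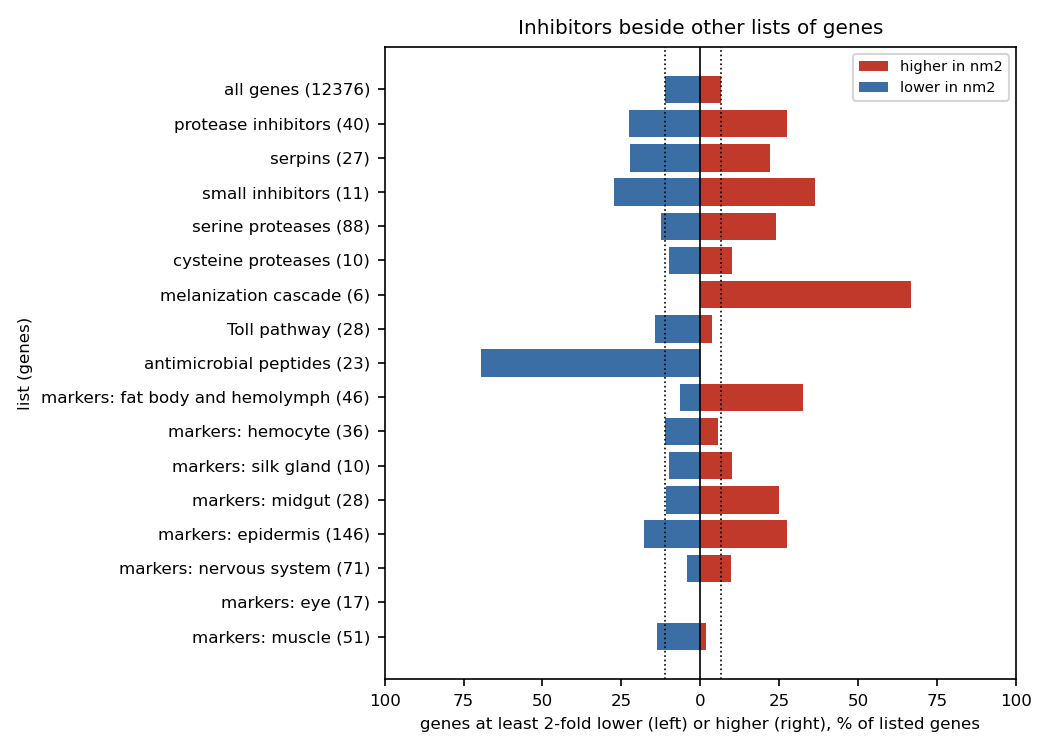
Share of the genes in each list, made by name and including the mismatched names given in the text, that were at least 2-fold higher (right) or lower (left) in *nm2*, in percent of all listed genes, whose number stands in brackets; dotted lines mark the shares of all genes, 6.54% higher and 11.1% lower. Inhibitors lie past both lines, with 27.5% higher and 22.5% lower.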

How the data were processed

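The authors filtered raw reads for adapters and quality, mapped what remained to reference genes of SilkDB (a sheet name of the deposited tables reads Bowtie2), estimated abundance with RSEM and deposited FPKM for 12376 genes. Versions are not given in the sources used here. Read totals (counts) and the percent of reads mapped to genes are taken as deposited by the authors. Their tables of differentially expressed genes also hold log2 ratios, P-values and FDR, which were not used, nor were their tables of enriched GO terms and pathways. From the former only the coding length, listed for 1727 genes, was taken. Because that choice was made on these libraries, intervals of these genes that leave out a ratio of 1 follow from it. So do ratios past 2-fold, which the choice also required.

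The log2 difference, with 1 FPKM added to both values, was taken for every gene. Reads were worked out by trying library totals up to the number of reads mapped to genes and keeping that at which low values came nearest to whole reads. With 36 bases taken off the length this gave 3765500 for the wildtype and 4052500 for *nm2*, and 90.5% and 95.8% of 262 and 381 low values fell within 0.1 of a whole read. These totals are 52.6% and 52.3% of the mapped reads for a reason not given in the sources used here, and serve only as a scale of counting error. The search and the interval were tested on simulated data.

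Named genes were every inhibitor past the 2-fold rule, at 100 FPKM or more in a library, or listed at 0 in 1 library and at 5 FPKM or more in the other, and the pair of genes farthest apart past the rule in each list. The other inhibitors are given to account for all members. The fibroin and sericin genes, *30K protein 8*, the storage protein and arylphorin-like genes, apolipophorin III, hemocytin and the PBAN-type neuropeptide were chosen after their values were seen. Members and lists were chosen with earlier results of these data known. Class was assigned by name; proteins were not analysed here. RefSeq genes were matched by protein accession (27 models), by accession without version (2) or by name (2). Alternatives were 3 rescalings, other pseudocounts and limits on FPKM, a stricter fold, 1 model per BLAST protein and a limit on the E-value. The rule for runs of neighbours, and the lists without genes caught by name only, were set after the data were seen. Scripts ran under Python 3.11.15 with pandas 2.3.3 and NumPy 2.4.6, intervals came from SciPy 1.17.1 and plots from matplotlib 3.10.9.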

Additional observations from a re-analysis of the deposited data

How the results depend on the processing

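No paired analysis was possible because each strain has 1 library. The counts of higher and lower inhibitors stayed within 1.5 times their value under every rescaling, pseudocount, limit on FPKM and choice of gene models tried. A log2 difference of 2 or more left 5 higher and 3 lower inhibitors, with 2 and 2 of the serpins and 3 and 1 of the small inhibitors, and 296 and 436 of all genes. A limit of 20 FPKM left 502 higher and 816 lower of all genes. Medians were less stable. After the median rescaling they were 0.36 for the inhibitors, -0.18 for the serpins, 0.26 for the small inhibitors and -0.017 for all genes. Without a limit on FPKM the inhibitors had 0.21 and the serpins 0.19. With a limit of 5 FPKM the values were 0.23 for the inhibitors, 0.19 for the serpins and 0.18 for the small inhibitors, and with 20 FPKM they were 0.33, 0.21 and 0.38. With the limit of 1 FPKM used in the text they were 0.08, -0.39 and -0.019. With 1 model per BLAST protein the inhibitors had -0.019. The sign of these medians depends on these choices, and the cause was not tested. No inhibitor past the rule changed sign under a rescaling or pseudocount, whereas *BGIBMGA009072*, which did not pass, went from -0.16 to 0.13 after the median rescaling. Inhibitors under 5 FPKM are limited by depth.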
